A study of Mus musculus with 28 samples.

Results

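The 35 genes described here mark brain and blood cells other than the microglia and astrocytes that were sorted. They were taken from the 40481 mouse genes of the deposited count table by gene symbol and fall into 7 classes. The rule uses no measured value, but the genes were chosen with earlier results of these data known. The classes are endothelium (10 genes), ependyma and choroid plexus (4), pericytes and smooth muscle (6), oligodendrocytes (5), oligodendrocyte precursors (2), neurons (4) and neutrophils (4). Every mouse was APOE4fl/fl, a human APOE4 knock-in allele flanked by loxP sites. APPPS1 mice also carry transgenes that make them form amyloid, and Cre-positive mice carry ALDH1L1-CreERT, a tamoxifen-inducible Cre driven by the Aldh1l1 promoter of astrocytes. All mice, Cre-negative ones included, were given tamoxifen at 3.8 months of age in 2 doses of 100 mg/kg. Cells were taken 10 days later from cortex, hippocampus and thalamus by flow sorting, with anti-Cd11b for microglia and anti-ACSA-2 for astrocytes, and each mouse gave 1 library per sort.

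The labels name 14 mice and 28 libraries. Per sort they give 2 amyloid-free Cre-negative mice (465 and 759), 2 amyloid-free Cre-positive mice (22 and 26), 5 APPPS1 Cre-negative mice (439, 447, 469, 774 and 779) and 5 APPPS1 Cre-positive mice (443, 458, 459, 460 and 475), whereas the series text gives 4 mice for each APPPS1 group. In mouse 459 the contents went against both labels. Levels are given as CPM, counts scaled to the mouse-gene total of the library. Summed over 15 microglia identity genes, the library labelled astrocyte held 44285 CPM, and summed over 16 astrocyte identity genes it held 481 CPM. Mouse 459 was therefore left out, and 13 mice and 26 libraries were used. In these, the microglia identity sum was 21938 to 51156 CPM in the microglia sort and 106 to 189 CPM in the astrocyte sort, and the astrocyte identity sum was 36333 to 54387 CPM in the astrocyte sort and 333 to 1022 CPM in the microglia sort. Libraries held 26139519 to 59165002 mouse-gene counts, so that a count of 0 allows up to 0.0507 to 0.115 CPM (3 counts, counting error only). Sexes and litters were not given, and each amyloid-free group had only 2 mice.

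As background, brain capillaries are tubes of endothelial cells joined by claudins and cadherins, with pericytes on their outer face and smooth muscle around arterioles. Ependymal cells line the ventricles with motile cilia, the choroid plexus secretes transthyretin, oligodendrocytes wrap axons in myelin, and their precursors carry the NG2 proteoglycan. Neutrophils are short-lived blood granulocytes that carry Cd11b on their surface, as microglia do, and they reach a brain preparation with blood left in the vessels. In bulk RNA of a sorted population, the level of such a marker depends on how many of its cells were sorted and how much RNA each held. Any RNA of the marker made by the sorted microglia or astrocytes themselves adds to it. Fewer cells of a type, less RNA per cell and RNA of the sorted cells themselves cannot be told apart. Within that limit, these genes bear on the purity of each sort and on whether it varied with genotype.

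The sorts differed in which marker genes they held. The neutrophil genes were higher in microglia, and most genes of vessels, ependyma, myelin and neurons were higher in astrocytes. Between the sorts, 32 of the 35 genes passed at an adjusted p under 0.05 (edgeR quasi-likelihood test over 21612 genes). Of these, 5 were higher in microglia, against 35.4% of all genes tested, and 27 were lower in microglia, against 41.1% of all genes tested. The median log2 difference, microglia over astrocytes, was -2.47 over the 35 genes and -0.18 over all genes tested. With size-factor scaling (RLE) in place of TMM the median over all genes was -0.30, so that differences of that size carry no direction. The genes that did not pass were Acta2, Ttr and Rbfox3.

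**Figure D1:**
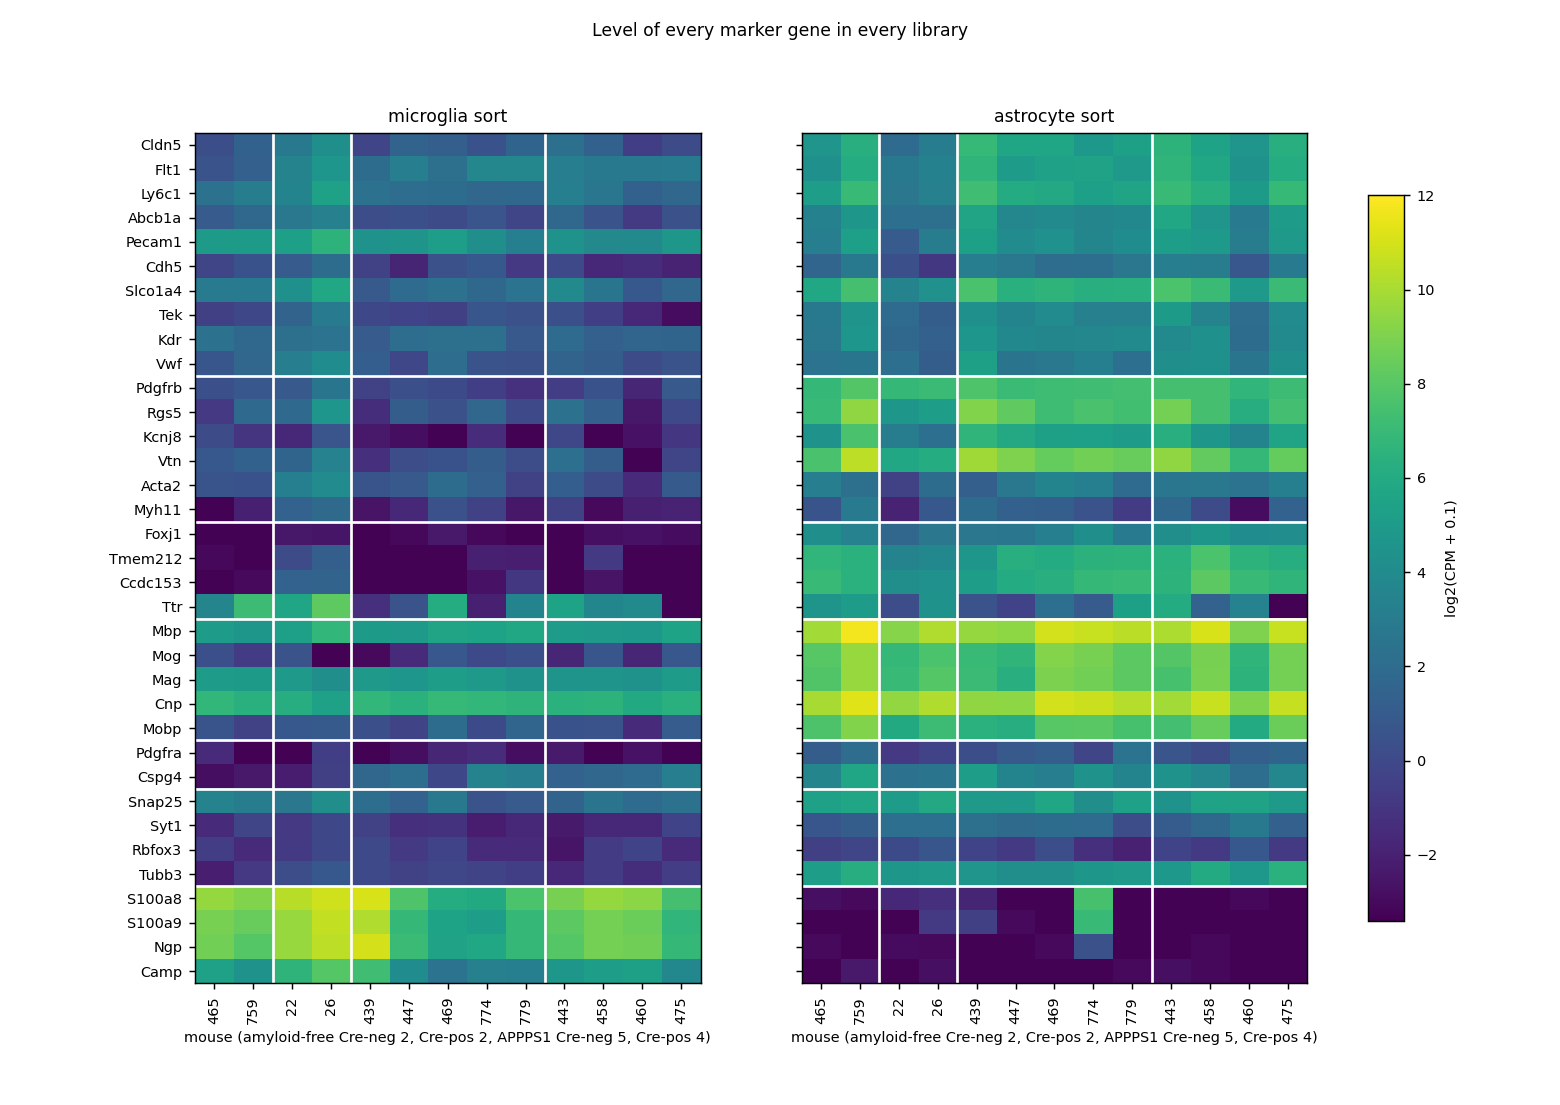
Levels of the 35 genes (rows, by class) in the 13 microglia and 13 astrocyte libraries (columns, by genotype group and mouse), as log2(CPM + 0.1) on a colour scale. The neutrophil rows are high in every microglia library and in the astrocyte library of mouse 774, and the myelin and pericyte rows are high across the astrocyte libraries.

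Among the endothelial genes, Pecam1, an adhesion molecule of endothelium that leukocytes and platelets also carry, was the only one higher in microglia, by 1.39 ± 0.31 on the log2 scale (SE, adjusted p = 0.000375). It was 9.36 to 95.4 CPM in microglia (median 24.0) and 1.89 to 41.3 CPM in astrocytes (median 17.2), and the ranges overlapped. Cldn5 (chr16:18776847-18778262, + strand, GRCm38), the main claudin of blood-brain barrier tight junctions, was 0.594 to 18.8 CPM in microglia (median 2.47) and 3.86 to 122 CPM in astrocytes (median 46.1). Its difference was -2.89 ± 0.40 (adjusted p = 8.11e-07), and the ranges met only through mice 22 and 26. The ratio of Pecam1 to Cldn5 was 3.31 to 29.1 in microglia and 0.319 to 0.951 in astrocytes, with no overlap.

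Other barrier genes were lower in microglia as well. Slco1a4, an organic anion transporter of brain endothelium, was 11.2 to 199 CPM in astrocytes (median 84.4) and 1.67 to 55.2 CPM in microglia (median 5.36), a difference of -2.47 ± 0.37. Ly6c1, a surface antigen of brain endothelium with a near-identical neighbour, Ly6c2, was lower by -2.09 ± 0.33, and the drug efflux pump gene Abcb1a, which has a close copy in Abcb1b, by -2.15 ± 0.35. How reads were split between such copies was not given in the sources used here. The receptor genes Flt1 and Kdr, which bind VEGF, differed by -1.80 ± 0.31 and -0.92 ± 0.26, and Tek, the angiopoietin receptor, by -2.61 ± 0.42. The junction cadherin gene Cdh5 differed by -1.37 ± 0.37, and Vwf, the clotting glycoprotein, by -0.84 ± 0.36 with an adjusted p of 0.0404, the highest p among those that passed. Over the 10 endothelial genes the median was -1.95. Of 14 further endothelial genes, 11 were lower and 2 higher in microglia.

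Pericyte genes separated the sorts by more. Vtn, which encodes vitronectin, was 55.6 to 1433 CPM in astrocytes (median 332) and 0 to 10.6 CPM in microglia (median 1.72), and Pdgfrb, the PDGF receptor that keeps pericytes on vessels, was 105 to 236 CPM (median 152) against 0.198 to 5.81 CPM (median 1.19). No microglia library reached an astrocyte library for either gene. The differences were -6.57 ± 0.62 for Vtn and -6.30 ± 0.32 for Pdgfrb, the latter with an adjusted p of 4.52e-14. Rgs5, a G-protein regulator of mural cells, was 0.0849 to 25.2 CPM in microglia (median 2.07) and 26.3 to 707 CPM in astrocytes (median 167), a difference of -5.30 ± 0.62. Kcnj8, a potassium channel subunit of pericytes, differed by -6.16 ± 0.62. The contractile genes of smooth muscle did not follow: Myh11 differed by -1.86 ± 0.69 (adjusted p = 0.0184), and Acta2, smooth muscle actin, by -0.54 ± 0.36 (adjusted p = 0.182). Of 10 further mural genes, 8 were lower in microglia and none of the tested ones was higher.

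The ratio of Vtn to Rgs5 stayed between 1.44 and 2.23 across the 13 astrocyte libraries although Vtn itself ranged from 55.6 to 1433 CPM. These 2 genes were high or low in the same libraries. Pdgfrb did not follow them: its ratio to Vtn was 0.165 to 2.11, highest in mice 22 and 26. Per kilobase of exon, the astrocyte medians were 163 CPM for Vtn, 27.7 CPM for Pdgfrb, 32.6 CPM for Cldn5 and 3.13 CPM for Flt1. In microglia these were 0.847, 0.217, 1.74 and 0.539 CPM per kilobase, so that Vtn stood above Cldn5 in astrocytes and below it in microglia.

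The ependymal genes of cilia were plentiful in astrocyte libraries and near 0 in microglia. Ccdc153, a gene of ciliated cells, was 18.3 to 277 CPM in astrocytes (median 94.8), and Tmem212, another ependymal gene, 10.9 to 203 CPM (median 84.8). In microglia both had a median of 0, and the highest values, 2.72 CPM for Ccdc153 and 2.26 CPM for Tmem212, came from mouse 26. The differences were -9.13 ± 0.54 and -8.48 ± 0.56, and Foxj1, the master regulator of motile cilia, differed by -8.50 ± 0.46. Foxj1 was 3.12 to 26.5 CPM in astrocytes and at most 0.1 CPM in microglia. The ratio of Tmem212 to Ccdc153 held between 0.598 and 1.19 over the astrocyte libraries. Of 11 further genes of ependyma and choroid plexus, 9 were lower and 1 higher in microglia.

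Ttr, transthyretin of the choroid plexus, had a pattern of its own. In microglia it was 12.3 and 142 CPM in the amyloid-free Cre-negative mice, 52.7 and 291 CPM in the amyloid-free Cre-positive mice, 0.301, 1.33, 70.5, 0.145 and 11.8 CPM in the APPPS1 Cre-negative mice, and 46.5, 12.4, 15.5 and 0 CPM in the APPPS1 Cre-positive mice. In astrocytes it ran from 0 to 67.6 CPM. Mouse 26 was the highest microglia library. The APPPS1 and amyloid-free ranges overlapped among Cre-negative mice and did not among Cre-positive mice, and Ttr passed in no comparison. Its difference between the sorts was 1.89 ± 1.05 (adjusted p = 0.108).

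Myelin genes were found in every astrocyte library. Their sum was 1291 to 8021 CPM in astrocytes (median 2845) and 113 to 210 CPM in microglia (median 163), and all 5 genes were lower in microglia. Mbp, myelin basic protein, was 514 to 3466 CPM in astrocytes (median 1131) and 27.0 to 113 CPM in microglia, a difference of -4.51 ± 0.32. Mog, a glycoprotein of the outer myelin surface, was 102 to 793 CPM in astrocytes (median 257) and 0 to 1.65 CPM in microglia, a difference of -8.03 ± 0.69. Mobp, a compact myelin protein gene, differed by -6.61 ± 0.50. Mag, a glycoprotein of the inner myelin layer, and Cnp, a myelin phosphodiesterase, differed by less, -2.96 ± 0.33 and -3.42 ± 0.25.

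The proportions among the myelin genes were not those of the astrocyte sort. The ratio of Mag to Mog was 0.759 to 1.22 in the 13 astrocyte libraries and 15.7 to 1256 in the 12 microglia libraries with a Mog count, and the 13th, of mouse 26, had no Mog count. The upper limits of these microglia ratios rest on mouse 439, with 1 Mog count, and the next highest ratio of Mag to Mog was 119. The ratio of Cnp to Mog was 3.07 to 6.50 in astrocytes and 51.2 to 4781 in microglia, and that of Mbp to Mog 3.45 to 6.58 and 20.3 to 1385. In the microglia libraries Mag was steady, at 18.9 to 36.8 CPM, while Mog varied between 0 and 1.65 CPM. Mog, Mbp, Mobp and Cnp overlap other annotated gene models, Mobp on its own strand and the rest on the opposite one, and whether reads were counted by strand was not given in the sources used here. Of 12 further oligodendrocyte genes, all 12 were lower in microglia, among them Olig1 (-8.59 ± 0.45) and Olig2 (-9.43 ± 0.48).

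Precursor and neuronal genes were at most 18.3 CPM in microglia, and in astrocytes only Snap25, Tubb3 and Cspg4 of these 6 genes exceeded 10 CPM. Pdgfra, the PDGF receptor of oligodendrocyte precursors, was 0.466 to 5.32 CPM in astrocytes (median 1.76) and 0 to 0.574 CPM in microglia, a difference of -3.45 ± 0.69. Cspg4, the NG2 proteoglycan, which pericytes also make, was 4.39 to 51.0 CPM in astrocytes and 0.0425 to 11.1 CPM in microglia, a difference of -3.51 ± 0.49. Snap25, a synaptic vesicle fusion protein, was 18.7 to 59.8 CPM in astrocytes (median 42.7) and 1.32 to 18.3 CPM in microglia, a difference of -2.16 ± 0.26. Tubb3, neuronal tubulin, which shares its strand with an overlapping gene model, differed by -5.52 ± 0.27, and Syt1, the calcium sensor of vesicle release, by -2.41 ± 0.38. Rbfox3, the NeuN gene, was under 1 CPM in every microglia library and at most 1.67 CPM in astrocytes, and its difference was -0.29 ± 0.39 (adjusted p = 0.524).

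**Figure D2:**
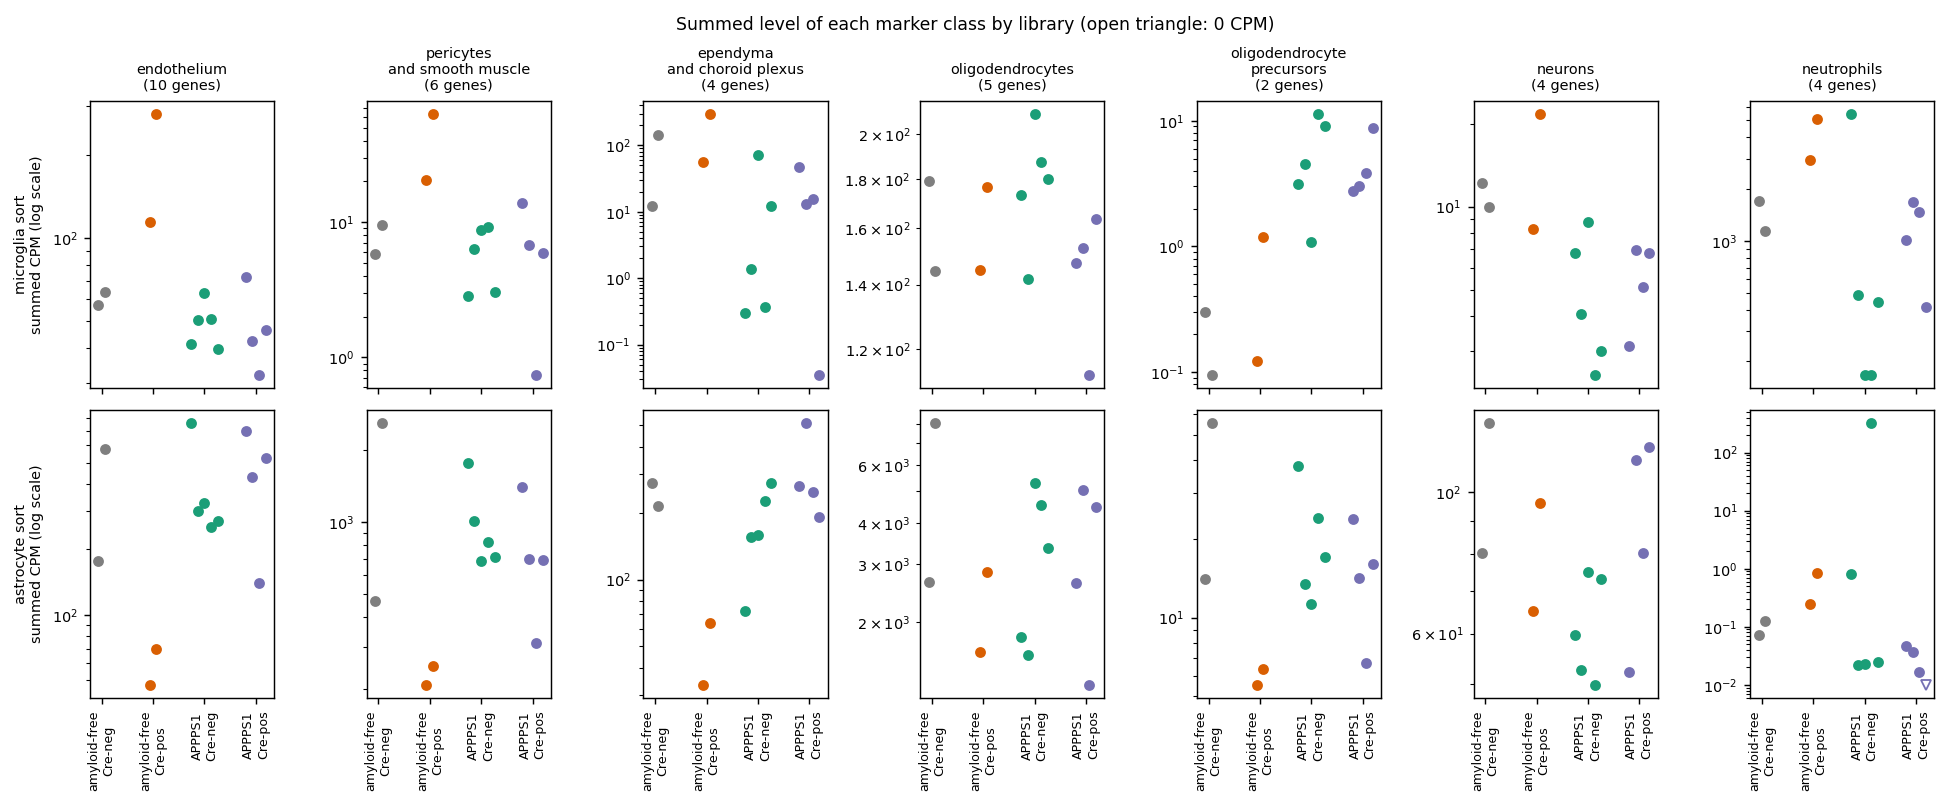
Summed CPM of each marker class (log axis) in each library, by genotype group, for the microglia and the astrocyte sort; an open triangle is a sum of 0. Neutrophil sums range from 166 to 5446 CPM in microglia, and in astrocytes only mouse 774, at 317 CPM, exceeds 0.841 CPM.

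Neutrophil genes were present in every microglia library. S100a8 and S100a9 encode the subunits of calprotectin, the abundant cytosolic protein of neutrophils, and Ngp and Camp encode proteins of their secondary granules. Granule genes are transcribed in the bone marrow during maturation, whereas S100a8 and S100a9 RNA persists in circulating neutrophils. In myeloid precursors such genes are known targets of C/EBP factors and PU.1, so the bases just before the start of these 4 genes are shown because the genes moved together across the microglia libraries. Sequences are from RefSeq (GRCm38.p6), which held 26 of the 35 genes, cut at the gene start of GENCODE M21 and written 5′ to 3′ on the gene's strand. Capitals mark matches, on either strand, to TTNNGNAA (C/EBP) or GAGGAAGT (PU.1), which were searched in the 250 bases before the RefSeq start.
S100a8, chr3:90668821-90668977, + strand: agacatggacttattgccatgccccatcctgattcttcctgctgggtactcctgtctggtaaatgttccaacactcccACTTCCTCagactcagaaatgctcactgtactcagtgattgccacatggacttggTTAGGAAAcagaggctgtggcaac
S100a9, chr3:90695722-90695971, - strand: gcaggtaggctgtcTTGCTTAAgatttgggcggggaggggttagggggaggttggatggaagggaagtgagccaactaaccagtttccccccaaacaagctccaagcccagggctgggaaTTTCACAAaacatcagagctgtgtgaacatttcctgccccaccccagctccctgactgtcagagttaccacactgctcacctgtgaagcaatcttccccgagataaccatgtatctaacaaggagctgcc
Ngp, chr9:110419558-110419746, + strand: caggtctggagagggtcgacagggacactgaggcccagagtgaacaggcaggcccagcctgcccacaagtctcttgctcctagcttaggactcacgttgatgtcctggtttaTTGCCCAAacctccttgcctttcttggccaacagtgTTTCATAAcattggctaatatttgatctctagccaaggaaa
Camp, chr9:109849618-109849706, - strand: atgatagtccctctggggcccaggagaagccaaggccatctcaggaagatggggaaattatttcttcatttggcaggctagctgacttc
S100a8 held 1 C/EBP and 1 PU.1 match, S100a9 held 2 C/EBP matches, and Ngp held 3 C/EBP matches, of which the third lies beyond the printed stretch. Camp held neither motif. Of 32851 promoters of the same length, 36.8% held the C/EBP motif and 2.44% the PU.1 motif. A match describes letters and is no evidence of binding.

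In microglia, S100a8 (chr3:90668978-90670035, + strand) was 771 and 546 CPM in the amyloid-free Cre-negative mice and 1279 and 1903 CPM in the amyloid-free Cre-positive mice 22 and 26. It was 2113, 217, 70.4, 62.7 and 202 CPM in the APPPS1 Cre-negative mice, in the order 439, 447, 469, 774 and 779, and 464, 766, 647 and 176 CPM in the APPPS1 Cre-positive mice 443, 458, 460 and 475. Mouse 439 was the highest of all and stood far above the rest of its group, and through it alone the APPPS1 range contained the amyloid-free range, since the other APPPS1 mice reached 766 CPM at most. Among Cre-positive mice all 4 neutrophil genes were wholly lower in APPPS1 than in amyloid-free microglia, with no overlap. That held for 22 of 34 members and for 27.2% of all genes, and 1 member, Cspg4, was wholly higher, as were 10.5% of all genes. Ngp ran from 43.6 CPM in mouse 469 to 2026 CPM in mouse 439, with 1390.1 CPM in mouse 26. The ratio of S100a9 to S100a8 was 0.529 to 0.804, that of Ngp to S100a8 0.441 to 0.959 and that of Camp to Ngp 0.0758 to 0.176 over the 13 microglia libraries, while the summed level varied between 166 and 5446 CPM.

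Between the sorts the differences were 12.04 ± 1.82 for S100a8, 12.67 ± 2.07 for S100a9, 14.37 ± 1.24 for Ngp and 11.64 ± 0.87 for Camp (edgeR, highest adjusted p = 1.9e-05). Those of S100a8 and S100a9 rest on near-zero astrocyte counts and mouse 774, and over the alternatives they ran from 8.20 to 14.53 and from 8.74 to 19.93. All 10 further neutrophil genes were higher in microglia too, led by Ltf (15.21 ± 1.33), which encodes lactoferrin. None of the 4 members passed in any comparison of genotypes within the microglia sort. Averaged over Cre, S100a8 differed between APPPS1 and amyloid-free microglia by -0.83 ± 0.72 (edgeR adjusted p = 0.494).

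**Figure D3:**
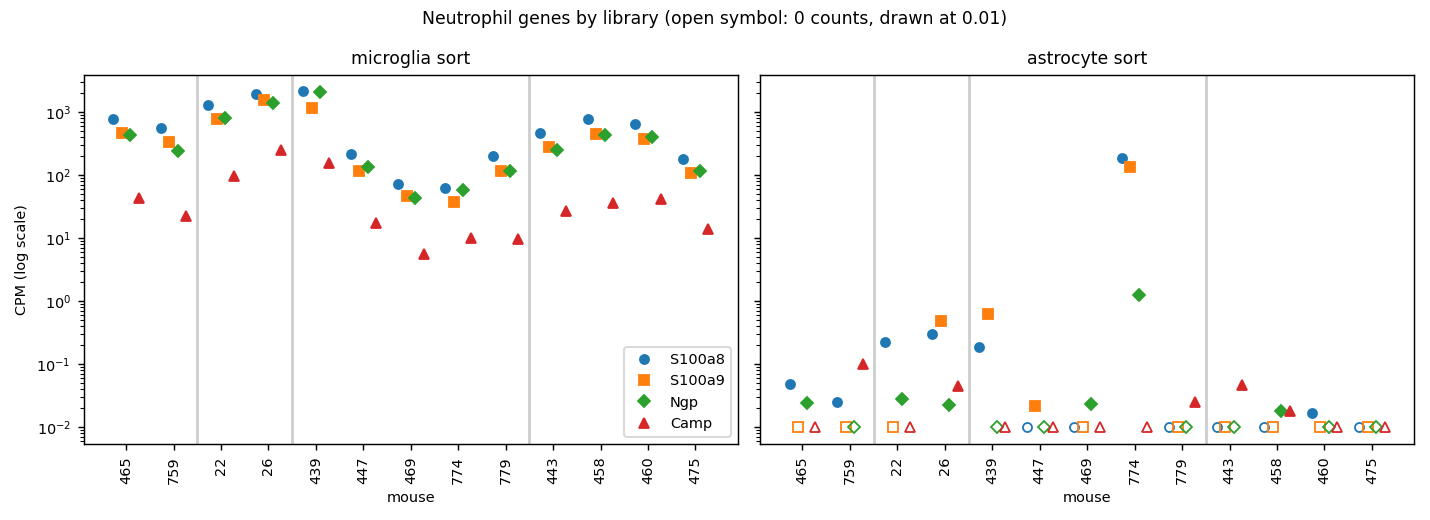
CPM (log axis) of S100a8, S100a9, Ngp and Camp in each library of both sorts, by genotype group; open points had 0 counts and are drawn at 0.01 CPM. The astrocyte library of mouse 774 reaches 184 CPM of S100a8 but only 1.23 CPM of Ngp and 0 counts of Camp.

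The astrocyte sort was nearly free of neutrophil RNA, with 1 exception. In 12 of the 13 astrocyte libraries S100a8 was at most 0.295 CPM, and over all 13 libraries only 56 counts of Ngp and 10 of Camp were found. The astrocyte library of mouse 774, an APPPS1 Cre-negative mouse, had 184 CPM of S100a8 (7621 counts) and 132 CPM of S100a9 (5461 counts). It had 1.23 CPM of Ngp (51 counts) and no count of Camp, which allows up to 0.0724 CPM. The ratio of Ngp to S100a8 was 0.00669 there, below the 0.441 to 0.959 of the microglia libraries.

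The microglia library of the same mouse was among the poorest in neutrophil genes, with 62.7 CPM of S100a8, 37.7 of S100a9, 57.2 of Ngp and 9.94 of Camp. Its Camp level was at least 137-fold higher than the astrocyte library allows. Relative to that microglia library, the astrocyte library held 2.93 times the S100a8, 3.5 times the S100a9 and 0.0215 times the Ngp. All 10 further neutrophil genes are given, which was decided after their values were seen. Cxcr2, the chemokine receptor of mature neutrophils, was 26.1 CPM in the astrocyte and 2.63 CPM in the microglia library. Retnlg was 49.0 and 18.7 CPM and Mmp9, a gelatinase, 31.2 and 6.50 CPM, whereas Ltf was 0.145 and 31.6 CPM. Elane had 0 counts in the astrocyte library and 1.30 CPM in the microglia library, Prtn3 0.0241 and 0.393 CPM, and Ly6g 0.145 and 0.476 CPM. Going the other way was Mpo, the myeloperoxidase of primary granules, at 0.796 CPM (33 counts) and 0.166 CPM. Mmp8, at 11 and 8.20 CPM, and Cd177, at 4.97 and 6.89 CPM, were similar in both. The neutrophil RNA of the 2 libraries of mouse 774 thus differed in its proportions, with Ngp, Camp and Ltf almost absent from the astrocyte library. The microglia identity sum of the astrocyte library was 189 CPM, the highest of the 13, and its part in this was not tested.

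The first genotype question was whether amyloid changed the other-cell RNA of the microglia sort. Averaged over Cre states, 7 of the 34 members tested passed between 9 APPPS1 and 4 amyloid-free microglia libraries. Cspg4 was higher, against 6.06% of all 17593 genes called higher, and Ly6c1, Abcb1a, Pecam1, Slco1a4, Vwf and Snap25 were lower, against 3.52% called lower. The median change was -1.01 over the members and -0.05 over all genes. Foxj1 was too low to be tested.

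Cspg4 (chr9:56865033-56899870, + strand) was the member whose APPPS1 and amyloid-free microglia libraries did not overlap. It was 0.0425 and 0.0939 CPM (2 and 4 counts) in amyloid-free Cre-negative mice and 0.121 and 0.612 CPM (4 and 16 counts) in amyloid-free Cre-positive mice. It was 3.15, 4.46, 0.877, 11.1 and 9.04 CPM in APPPS1 Cre-negative mice and 2.65, 3.05, 3.79 and 8.83 CPM in APPPS1 Cre-positive mice. Every APPPS1 library lay above every amyloid-free library, as for 2.0% of all genes tested, and no member lay wholly below, against 2.23% of all genes. The rise was 5.18 ± 0.79 on the log2 scale averaged over Cre (adjusted p = 0.00275), 6.49 ± 1.21 in Cre-negative mice (adjusted p = 0.0369) and 3.87 ± 1.02 in Cre-positive mice (adjusted p = 0.0384), by edgeR. Under the 18 alternatives run, the averaged rise stayed between 4.84 and 6.32 and passed in all of them, with an adjusted p of at most 0.0436.

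The other markers of the cells known to make NG2 did not rise with it. Pdgfra was 0 to 0.574 CPM in microglia and Pdgfrb 0.198 to 5.81 CPM, and neither passed within the microglia sort. The ratio of Cspg4 to Pdgfrb was 0.0357 to 0.105 in the 4 amyloid-free microglia libraries and 0.946 to 26.6 in the 9 APPPS1 microglia libraries, against 0.0417 to 0.216 in the astrocyte libraries. In astrocytes, Cspg4 was 12, 51.0, 5.07 and 5.66 CPM in amyloid-free mice and 4.39 to 36.8 CPM in APPPS1 mice, and it passed in no comparison there. The 179 bases before its start are given because this was the member called higher in APPPS1 microglia, with the 1 C/EBP match in capitals.
Cspg4, chr9:56864854-56865032, + strand: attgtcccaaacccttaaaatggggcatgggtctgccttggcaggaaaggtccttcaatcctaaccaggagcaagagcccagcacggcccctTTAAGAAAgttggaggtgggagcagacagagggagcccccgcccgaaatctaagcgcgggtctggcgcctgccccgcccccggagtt
The C/EBP motif stood in 36.8% of all promoters, as given above.

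**Figure D4:**
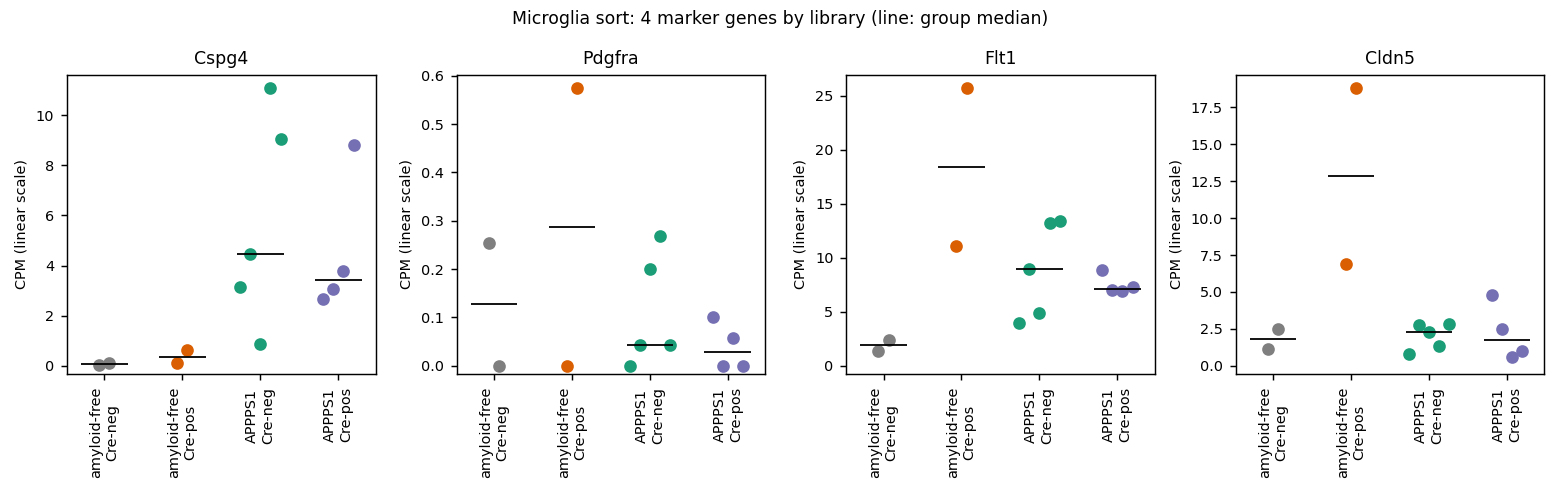
CPM (linear axes) of Cspg4, Pdgfra, Flt1 and Cldn5 in each microglia library by genotype group, with a line at the group median. Cspg4 is under 1 CPM in all 4 amyloid-free libraries and 0.877 to 11.1 CPM in the APPPS1 libraries, while Pdgfra stays under 1 CPM throughout.

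Endothelial members were on balance lower in APPPS1 microglia, and the libraries of mice 22 and 26 carried much of that. The summed level of the 14 further endothelial genes went the other way. It was 309 to 428 CPM in amyloid-free and 488 to 848 CPM in APPPS1 microglia, with no overlap. Of the 13 of these genes tested, 4 had a positive and 9 a negative sign. Ly6c1 fell by 1.40 ± 0.34 on the log2 scale (adjusted p = 0.0237), Abcb1a by 1.66 ± 0.36 (0.0141), Pecam1 by 1.0 ± 0.27 (0.034), Slco1a4 by 1.62 ± 0.44 (0.0359) and Vwf by 1.42 ± 0.38 (0.0333), all by edgeR. Abcb1a was 1.95, 3.22, 6.84 and 9.95 CPM in the amyloid-free mice 465, 759, 22 and 26. It was 1.09, 1.16, 1.03, 1.47 and 0.766 CPM in APPPS1 Cre-negative and 3.20, 1.37, 0.481 and 1.23 CPM in APPPS1 Cre-positive mice, so that only mouse 443 reached the amyloid-free range. Pecam1 was 32.3, 31.1, 38.9 and 95.4 CPM in amyloid-free mice against 9.36 to 35.5 CPM in APPPS1 mice, which overlapped. Over the 10 endothelial genes the median was -1.36. With mice 22 and 26 both left out, a setting chosen after seeing the data, Cspg4 alone passed, at 6.32. It was also the only one without mouse 26 alone or without mouse 759 alone, and 3, 4, 4 and 11 members passed without mouse 465, 458, 774 and 439.

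Flt1 (chr5:147561604-147726011, - strand), the gene of the VEGF receptor VEGFR1, which monocytes and macrophages also carry, was the 1 endothelial gene of positive sign, at 0.64 ± 0.35 (adjusted p = 0.257). It was 1.38 and 2.37 CPM in amyloid-free Cre-negative microglia, 11.1 and 25.7 CPM in amyloid-free Cre-positive, 3.98, 8.97, 4.86, 13.2 and 13.4 CPM in APPPS1 Cre-negative and 8.85, 7.01, 6.88 and 7.27 CPM in APPPS1 Cre-positive microglia. Among Cre-negative mice the groups did not overlap, and the change was 2.38 ± 0.54, which missed the threshold (adjusted p = 0.0927). Wholly higher in these APPPS1 mice were 3 members, Flt1, Cspg4 and Tubb3, as were 5.96% of all genes, and wholly lower were 5, Ly6c1, Abcb1a, Slco1a4, Kcnj8 and Snap25, as were 10.1%. Cldn5 in the same Cre-negative libraries was 1.13 and 2.47 CPM against 0.787, 2.75, 2.30, 1.30 and 2.83 CPM, and these overlapped. The ratio of Flt1 to Cldn5 was 0.962 to 11.6 in microglia and 0.660 to 1.84 in astrocytes.

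Of the 4 neuronal members, all of negative sign averaged over Cre, Snap25 alone passed in APPPS1 microglia, lower by 1.37 ± 0.36 (edgeR adjusted p = 0.0293). It was 11.2, 8.52, 6.30 and 18.3 CPM in amyloid-free mice and 1.32 to 6.91 CPM in APPPS1 mice, where only mouse 469 exceeded the lowest amyloid-free value. Beside it, Syn1 and Stmn2 of 13 further neuronal genes passed, at -3.16 ± 0.73 and -1.43 ± 0.36. The astrocyte identity sum in the same microglia libraries was 624 to 1022 CPM in amyloid-free and 333 to 719 CPM in APPPS1 mice. By edgeR, 8 of its 16 genes were called lower in APPPS1 microglia, against 3.52% of all genes. Gfap, the reactive astrocyte filament gene, was called higher, against 6.06% of all genes. The part of the astrocyte identity genes in these changes was not tested. No pericyte, ependymal, oligodendrocyte or neutrophil member passed.

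Within each Cre state the counts differed. Among Cre-negative mice, 1 member passed, Cspg4, against 0.279% of all genes called higher, and the median over the members was -0.12. The call of Cspg4 was lost without any 1 of mice 443, 447, 458, 460, 465, 759, 774 and 779, and 2 members passed without mouse 439 or without mouse 469. Among Cre-positive mice, 10 passed: Cspg4 was higher, against 3.65% of all genes, and 9 were lower, against 3.39%. Here Cspg4 no longer passed without any 1 of mice 22, 26, 443, 447, 458 and 475. The lower genes were Ly6c1 (-2.14 ± 0.49), Abcb1a (-2.20 ± 0.52), Pecam1 (-1.56 ± 0.39), Cdh5 (-2.75 ± 0.76), Slco1a4 (-2.34 ± 0.64), Tek (-3.17 ± 0.81) and Vwf (-2.65 ± 0.55) of endothelium, Acta2 (-3.06 ± 0.64) of smooth muscle, and Ccdc153 of ependyma, with adjusted p between 0.0214 and 0.0441. Ccdc153 rested on 156 counts in the 2 amyloid-free and 3 counts in the 4 APPPS1 Cre-positive libraries, a CPM ratio of 156 (exact 95% interval 52.4 to 765, counting error only). None of the members passed without mouse 26, without mouse 458 or without mouse 475, and 5 passed without mouse 460. The difference of the amyloid effect between Cre states was called for 0 members by edgeR, against 0.0% of all genes. An unadjusted edgeR p under 0.05 was found for 10 of 34 members, against 1527 of 17593 genes, and DESeq2 called 2 members. How many of all genes DESeq2 called is not given here. Its counts of members, here and below, are therefore no result about the members.

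The second question was whether Cre itself moved these genes. In APPPS1 microglia 0 members passed, against 0.00568% of all genes, and DESeq2 called 0. By edgeR, 0 of 34 members had an unadjusted p under 0.05, against 616 of 17593 genes. In amyloid-free microglia, too, edgeR called 0 members, against 0.0114% of all genes, but DESeq2 called 5. An unadjusted edgeR p under 0.05 was found for 14 of 34 members, against 2596 of 17593 genes. There the median was 1.5, and 31 of 34 members were higher in the Cre-positive mice. For 24 members both Cre-positive libraries lay above both Cre-negative ones, as for 29.4% of all genes, and for 2 they lay below, as for 16.6%.

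These 2 mice, 22 and 26, stood apart in both sorts, and in opposite ways. In microglia the sum of the 10 endothelial members was 114 and 282 CPM in them and 31.9 to 72.6 CPM in the other 11 mice. The sum of the 14 further endothelial genes was not high in them, at 309 and 362.2 CPM against 361.8 to 848 CPM in the other mice. Mouse 26 was the highest microglia library for 10 of 10 endothelial and 6 of 6 pericyte genes. Of the 25 members with a mean of at least 1 CPM it was the highest for 19, against 27.8% of 12503 such genes. It was the lowest for 2, Mag and Cnp, against 18.2% of such genes. Slco1a4 was 19.9 and 55.2 CPM in mice 22 and 26 and at most 14.9 CPM elsewhere, and Acta2 9.51 and 16.4 CPM against at most 3.96 CPM. In astrocytes the endothelial sum was 47.7 and 70.0 CPM in them and 140 to 756 CPM in the other mice. Mice 22 and 26 were the 2 lowest astrocyte libraries for all 10 endothelial genes, and 1 of them was the lowest for 19 of 32 members, against 17.6% of 14547 genes. Against the 2 amyloid-free Cre-negative mice, both lay lower for 23 of 33 members tested in astrocytes, as for 25.2% of all genes, and both lay higher for 3, as for 22.8%.

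**Figure D5:**
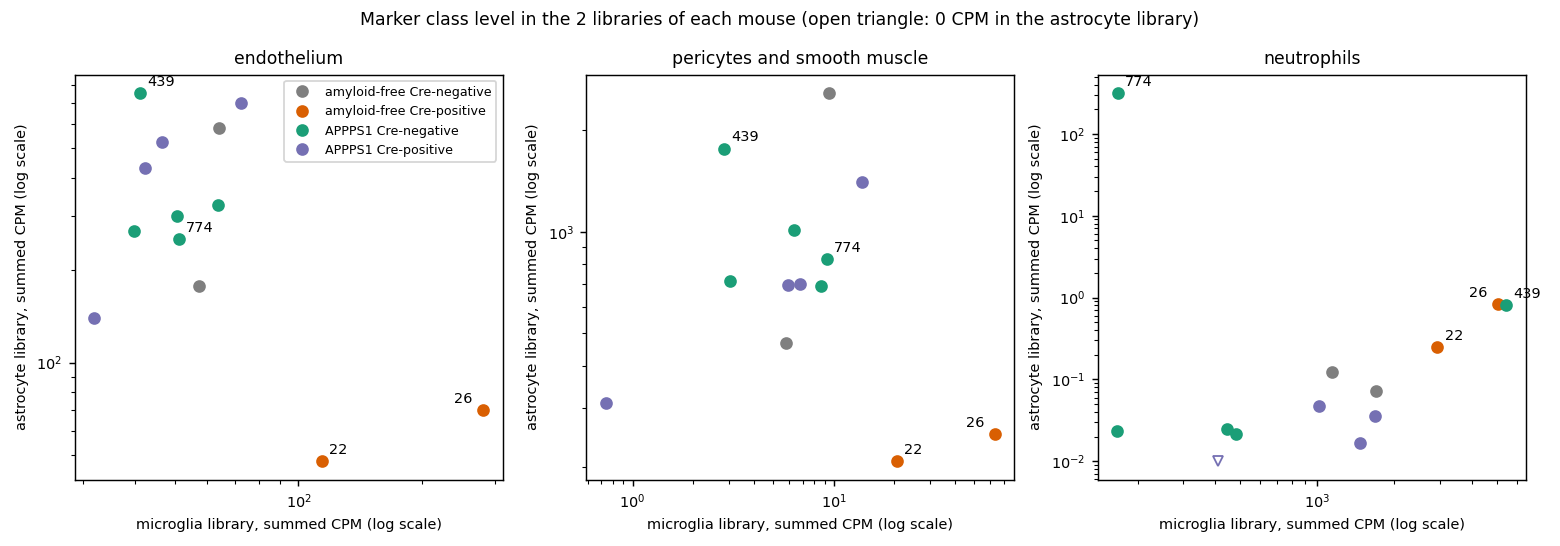
Summed endothelial, pericyte and neutrophil CPM of each mouse, microglia library on the x axis and astrocyte library on the y axis (both log), with mice 22, 26, 439 and 774 named. Mice 22 and 26 lie at the lower right of the endothelial panel, with 114 and 282 CPM in microglia and 47.7 and 70.0 CPM in astrocytes.

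Lists of other cells stood apart in mouse 26, and 1 of them in both mice. The summed level of 5 erythrocyte genes was 152 and 638 CPM in their microglia and 59.1 and 197 CPM in their astrocytes, against 0.0283 to 96.9 CPM in the other microglia libraries and 0.397 to 65.4 CPM in the other astrocyte libraries, so that mouse 22 was not apart in astrocytes. The monocyte sum of 4 genes was 1339 CPM in the microglia of mouse 26 and at most 386 CPM in any other mouse, with 332 CPM in mouse 22. The microglia identity sum was 21938 CPM in mouse 26 and 42056 to 51156 CPM in the other 12, mouse 22 included. In Cre-positive mice, edgeR called 4 of 5 erythrocyte genes and 11 of 16 astrocyte identity genes lower in APPPS1 than in amyloid-free microglia. Of all genes 3.39% were called lower there, and mice 22 and 26 were the only amyloid-free libraries. The part of these cells, or of any handling shared by mice 22 and 26, in the lower endothelial members of APPPS1 microglia was not tested. Mice 22 and 26 differed from each other in these sums. They make up the whole amyloid-free Cre-positive group, so that any such part cannot be told apart from the genotype.

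In the astrocyte sort, amyloid averaged over Cre was called for 0 members by edgeR, against 0.0% of 20052 genes, and for 4 by DESeq2. An unadjusted edgeR p under 0.05 was found for 12 of 33 members, against 1409 of all genes. All 10 endothelial genes had a positive sign, with a median of 1.46, which was 2.74 in Cre-positive mice and 0.07, with 6 positive and 4 negative signs, in Cre-negative mice. Averaged over Cre, Cldn5 was at 1.73 ± 0.49 (adjusted p = 0.377). Among Cre-negative mice edgeR again called 0 members, against 0.0% of all genes, and DESeq2 called 0. There 2 of 33 members had an unadjusted edgeR p under 0.05, against 815 of 20052 genes. Cre in APPPS1 astrocytes was called for 0 members by edgeR, against 0.00997% of all genes, and for 0 by DESeq2. In that comparison 4 of 33 members had an unadjusted edgeR p under 0.05, against 1343 of 20052 genes. The myelin gene Mbp differed there by 0.01 ± 0.45.

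By edgeR, the members that passed in astrocytes were ependymal. DESeq2 called 14 members among Cre-positive mice, 13 for Cre in amyloid-free mice and 6 for the difference of the amyloid effect. Its share of all genes is not given for these counts either. Among Cre-positive mice, Tmem212 (chr3:27866066-27896368, - strand) was 10.9 and 13.5 CPM in the amyloid-free mice 22 and 26 and 84.8, 203, 95.4 and 73.6 CPM in the APPPS1 mice 443, 458, 460 and 475. Ccdc153 (chr9:44240676-44247306, + strand) was 18.3 and 20.8 CPM against 94.8, 277, 126 and 100.4 CPM. Neither overlapped between these groups. In all, 18 of 33 members, the 10 endothelial genes among them, were wholly higher in APPPS1 astrocytes of Cre-positive mice, as were 13.3% of all genes, and 1, S100a8, was wholly lower, as were 8.03%. Tmem212 was higher in APPPS1 astrocytes by 3.16 ± 0.51 (adjusted p = 0.0157) and Ccdc153 by 2.87 ± 0.52 (adjusted p = 0.0278), against 0.578% of all genes called higher. Of 11 further genes of ependyma and choroid plexus 3 passed, all higher, led by Rsph1 (2.86 ± 0.44), a radial spoke gene of cilia, and Folr1 (2.76 ± 0.45), a folate receptor gene. Cldn5, at 3.24 ± 0.76, had an adjusted p of 0.0729, and Ly6c1, at 3.43 ± 0.77, one of 0.0574.

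The 2 amyloid-free Cre-negative astrocyte libraries, of mice 465 and 759, had 106 and 85.0 CPM of Tmem212, and the APPPS1 Cre-negative ones 26.7, 81.2, 67.2, 91.9 and 93.2 CPM. Mice 22 and 26 were therefore low against all 3 other groups. Among amyloid-free mice, Tmem212 differed between Cre-positive and Cre-negative astrocytes by -2.97 ± 0.54 (edgeR adjusted p = 0.0479), the 1 member called lower, against 0.16% of all genes. The difference of the amyloid effect between Cre states was 3.56 ± 0.62 for Tmem212 (adjusted p = 0.047), again 1 member, called higher against 0.14% of all genes. These 3 comparisons share the libraries of mice 22 and 26, and without either mouse no member passed in any of them. The calls among amyloid-free mice and of the difference were also lost without any 1 of mice 443, 447, 469, 475, 759 and 779, and the first of them without mouse 774 too. In Cre-positive mice, 5 members passed without mouse 439 and 8 without mouse 460. The difference had 0 calls without mouse 465 and 2 without mouse 439, and the call among amyloid-free mice became 4, 3 and 2 calls without mouse 465, 439 and 458. Under all alternatives that lost a call, Tmem212 kept its size, at 2.81 to 3.33 in Cre-positive mice, -3.14 to -2.81 in amyloid-free mice and 3.22 to 3.73 for the difference. Tmem212 overlaps another annotated gene model, whose share of its counts is not known.

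Mice with many endothelial genes in the astrocyte sort were found in several groups. The endothelial sum was 756 CPM in mouse 439, 701 CPM in mouse 443, 579 CPM in mouse 759 and 523 CPM in mouse 475, and 140 CPM in mouse 460. Mouse 759 also had the most myelin (8021 CPM) and pericyte RNA (2581 CPM), and mouse 460 the least myelin (1291 CPM). In APPPS1 astrocytes the Cre-negative range of the endothelial sum, 253 to 756 CPM, overlapped the Cre-positive range of 140 to 701 CPM, and the myelin sums, 1595 to 5294 CPM and 1291 to 5044 CPM, overlapped almost wholly. The spread of the other-cell genes was thus wide within groups, and the Cre-negative and Cre-positive ranges of APPPS1 mice overlapped in both classes.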

How the data were processed

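Mouse genes were counted in microglia and astrocytes sorted from 14 mice. The values are raw counts per gene as deposited by the authors, made with bcl2fastq, STAR and Subread featureCounts on GRCm38 and GRCh38, per the submitters' processing notes; settings and strand were not given in the sources used here. The table held 95966 rows, of which 258 gene IDs stood on more than 1 row and were kept once, leaving 40481 mouse and 55093 human genes; human genes were left out of library sizes. CPM are counts scaled to the mouse-gene total of the library. The 35 members, the further marker lists and the comparisons were chosen with earlier results of these data known. Mouse 459 was left out.

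Tests were edgeR 4.0.16 quasi-likelihood F tests in R 4.3.3, with TMM scaling, filterByExpr by group and 1 term per genotype group, on 13 libraries per sort or 26 between sorts. P-values were Benjamini-Hochberg adjusted across every gene in the fit, with 0.05 as the threshold; standard errors are the absolute log2 change over the square root of F. The fit was checked on simulated counts. Replicates are mice, 1 library per mouse and sort, so a p-value measures the spread between mice. Mouse numbers are shared by both sorts because the labels give both libraries of a mouse its number. Deviations of same-numbered libraries from their group means correlated weakly and in both directions, at -0.106 to 0.265. The pairing therefore rests on the labels. Positions came from GENCODE M21, which matched 40254 genes. Members that passed a comparison are named in it, the member of highest median CPM of each class and sort is given by library or range, and at most 2 genes of lowest p are named from each further list. Alternatives were RLE scaling, DESeq2 1.42.0, no filter, libraries as labelled with mouse 459, the compared groups only, each mouse left out, and the mouse as a block between sorts.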

Additional observations from a re-analysis of the deposited data

Results flagged for a closer look

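In 4 of 28 sets of class sums by sort and group, 1 library lay far from the others by Dixon's criterion. Chance gives about 1 in 20 for independent, normally spread values, which raw sums from the same mice need not be. All were in APPPS1 Cre-negative mice, the only group with more than 4 libraries. In microglia, the ependyma and choroid plexus sum of mouse 469 was 70.6 CPM, nearly all of it Ttr, and the next highest was 12.4 CPM. The neutrophil sum of mouse 439 was 5446 CPM in microglia, against 483 CPM in the next mouse, and its endothelial sum in astrocytes was 756 CPM, against 327 CPM. The neutrophil sum of the astrocyte library of mouse 774 was 317 CPM, against 0.809 CPM.

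The amyloid effect on Tmem212 in astrocytes differed between Cre states by 3.56 on the log2 scale, by a test of the difference itself. It rests on the low astrocyte libraries of mice 22 and 26. Over 17 alternatives the difference was 3.17 to 3.73, and the call was kept in 6 and lost in 11.

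Both libraries of mouse 459, used in no comparison, held the markers of the other sort. Its library labelled microglia had a pericyte sum of 450.0 CPM and an oligodendrocyte sum of 2141 CPM, where the other microglia libraries reached 63.1 and 210.0 CPM. Its library labelled astrocyte had a neutrophil sum of 1998 CPM, where the highest other astrocyte library had 317 CPM.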

How the results depend on the processing

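Between sorts, 32 members passed, 33 with the replicate block of mouse (the same 32 and 1 more), and 30 to 33 with each mouse left out. Of 576 alternative values for the 32 calls, 563 kept their side of the threshold and 13 lost it. Within sorts, of 395 alternative values for 22 calls, 257 kept it, 137 lost it and 1 turned direction: Ccdc153 in Cre-positive microglia went to 2.90 with mouse 459 as labelled. The 7 members called for amyloid in microglia became 1 with mouse 459, 1 without mice 22 and 26, and 1 to 11 with each mouse left out. In Cre-negative microglia the 1 call became 2 by DESeq2, 2 without a filter, 0 with mouse 459, 0 in a fit of the compared groups only, and 0 to 2 with each mouse left out. In Cre-positive microglia the 10 calls became 0 with mouse 459 and 0 to 12 with each mouse left out. For Cre in amyloid-free microglia, 0 became 5 by DESeq2, 2 without a filter and 0 to 4 with each mouse left out, where 4 came without mouse 22. For the microglial difference, 0 became 2 by DESeq2, 1 without a filter and 0 to 1 with each mouse left out, where 1 came without mouse 22. In astrocytes, amyloid averaged over Cre went from 0 to 4 by DESeq2. The 2 calls in Cre-positive astrocytes became 14 by DESeq2, 7 without a filter, 0 with mouse 459 and 0 to 8 with each mouse left out. The 1 call for Cre in amyloid-free astrocytes became 13 by DESeq2, 5 without a filter, 0 with mouse 459, 0 in a fit of the compared groups only and 0 to 4 with each mouse left out. The 1 call for the astrocyte difference became 6 by DESeq2, 2 without a filter, 0 with mouse 459 and 0 to 2 with each mouse left out. The setting with mouse 459 adds both of its libraries, whose contents went against their labels. The cause of the changes under the other settings was not tested, and the share of all genes called under each setting is not given here. Depth limits the rarest genes, since 3 counts were at most 0.115 CPM. The sizes of the Cspg4 and Ccdc153 changes in microglia are among those it limits, as both rest on few counts in the lower group.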

Other observations

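Genes listed for other blood cells were mostly higher in the Cd11b sort as well. All 4 monocyte genes were higher in microglia than in astrocytes (edgeR), led by Ccr2, the chemokine receptor of inflammatory monocytes (11.64 ± 0.63 on the log2 scale, adjusted p = 2.27e-13), and Plac8 (10.06 ± 0.86). Of 8 lymphocyte genes tested, 6 were higher in microglia, against 35.4% of all genes tested. These were led by Cd79b, a B-cell receptor subunit gene (13.54 ± 0.32), and Nkg7 (7.49 ± 1.13). The lymphocyte sum was steady in microglia, at 47.3 to 79.8 CPM, while the neutrophil sum of the same libraries ranged from 166 to 5446 CPM. Whether lymphocytes or the sorted microglia themselves held the RNA of these lymphocyte genes was not tested. In APPPS1 microglia, averaged over Cre, 1 of 4 monocyte genes, Ccr2, was lower, at -1.43 ± 0.38 (edgeR adjusted p = 0.0319). So was 1 of 7 lymphocyte genes tested, Ms4a1, the CD20 gene of B cells, at -4.0 ± 1.0 (adjusted p = 0.0256). Of all genes 3.52% were called lower. Among Cre-negative mice 0 genes of either list passed, against 0.0341% of all genes called lower. The monocyte sum was highest in the amyloid-free mouse 26, at 1339 CPM. These calls were not rerun under the alternatives.

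Cd34, listed with endothelium and carried by blood stem cells too, rose in APPPS1 microglia by 1.45 ± 0.21 (edgeR adjusted p = 0.00217), while Itm2a, another endothelial gene, fell by 1.40 ± 0.35 (adjusted p = 0.0258). No other gene of the further endothelial list passed there, of 13 tested, where 6.06% of all genes were called higher and 3.52% lower. Among Cre-negative mice 0 of the 13 passed.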
